A study of Mus musculus with 24 samples.

Results

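The genes described here encode respiratory complexes II to V of the mitochondrial inner membrane. They were taken by gene symbol, as Sdha to Sdhd and as every symbol beginning with Uqc, Cox4, Cox5, Cox6, Cox7, Cox8, Atp5, mt-Co, mt-Atp or mt-Cytb. This gave 59 of 17464 listed genes. Of these, 49 are nuclear genes, 6 lie in mitochondrial DNA and 4 are pseudogene or pseudogene-like entries (Atp5l2-ps, Atp5pb-ps, Cox5b-ps and Cox6c2). By complex, 4 belonged to complex II, 15 to III, 18 to IV and 22 to V.

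RNA was measured in regulatory T (Treg) cells sorted from the spleens of 4 young (2-month-old) and 4 old (26-month-old) wild-type C57BL/6JRccHsd mice. From these mice, resting Treg (rTreg) cells were sorted as CD62L+ CD44-, activated Treg (aTreg) cells as CD62L- CD44+ and a further subset (kTreg cells) as KLRG1+, so that 24 libraries fell into 6 groups of 4. The labels do not state that a replicate number marks 1 mouse, so libraries of the same age and number are called a numbered pair below. No group carried a transgene or a treatment. Each library held polyA RNA amplified with SMART-Seq v4, and 15045747 to 29521942 reads lay on listed genes.

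Complex II (succinate dehydrogenase) passes electrons from succinate to ubiquinone, complex III (the cytochrome bc1 complex) passes them to cytochrome c, and complex IV (cytochrome c oxidase) passes them to oxygen. Complexes III and IV pump protons, and complex V (ATP synthase) uses the proton gradient to make ATP. Complex II is encoded by nuclear genes alone, whereas III, IV and V are assembled from nuclear subunits and from a few core subunits that are transcribed from mitochondrial DNA. Treg cells are known for a high reliance on oxidative phosphorylation.

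The mitochondrially encoded genes could not be read on equal terms, because mouse chromosome 1 holds a nearly identical copy of part of mitochondrial DNA. In GRCm39 the copy lies at chr1:24650616-24655269 on the minus strand. It matched positions 6390 to 11042 of mitochondrial DNA over 4653 bases, with 2 mismatches and 1 gap base (99.9% identity). mt-Co2, mt-Atp8, mt-Atp6 and mt-Co3 lay wholly inside it, 31.3% of mt-Co1 did, and none of mt-Cytb did. The stretches that follow show why this matters, each given in the sense of the mRNA. In the pair from mt-Co1 the capitals mark the unbroken match, which runs on over the last 479 bases of the gene and starts just after a mismatch, 4 bases inside the aligned copy. In mt-Co2 they mark bases that the copy shares. The first bases of mt-Co2 (which read the same at chr1:24654587-24654646) show a gene inside the copy, and those of mt-Cytb a gene outside it.
mt-Co1, chrM:6364-6423, plus strand: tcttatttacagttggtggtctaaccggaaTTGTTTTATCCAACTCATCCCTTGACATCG
the matching place, chr1:24655236-24655295, minus strand: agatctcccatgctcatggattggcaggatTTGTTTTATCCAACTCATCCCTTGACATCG
mt-Co2, chrM:7013-7072, plus strand: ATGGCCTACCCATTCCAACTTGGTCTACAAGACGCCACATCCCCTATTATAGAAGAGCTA
mt-Cytb, chrM:14145-14204, plus strand: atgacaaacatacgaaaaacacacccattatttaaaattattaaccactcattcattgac

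A read from the shared stretch fits 2 places of the genome, and how such reads were counted is not given in the sources used here. Levels were compared between genes as reads per base of transcript, scaled to sum to 1000000 in each library (a per-length level). mt-Cytb, the cytochrome b of complex III, had the highest median per-length level of all members, 2955 over the 24 libraries (1994 to 3883). mt-Co1, the catalytic subunit of complex IV, followed with 2379 (1546 to 3444). These ranges over libraries overlapped, and the order of the 2 genes within each library was not tested. mt-Co3 had a median per-length level of 90.8, mt-Atp6 of 66.6, mt-Co2 of 64.0 and mt-Atp8 of 6.14. The same contrast held for the complex I genes of mitochondrial DNA. mt-Nd3 (99.1% in the copy) had a median of 14.5 and mt-Nd4l (wholly in it) of 1.77, against 1685 for mt-Nd1 and 461 for mt-Nd5, which lay outside it. Levels of the 4 members inside the copy are therefore given separately from mt-Co1 and mt-Cytb. Medians named below as those of mitochondrially encoded members pool genes inside and outside the copy.

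**Figure D1:**
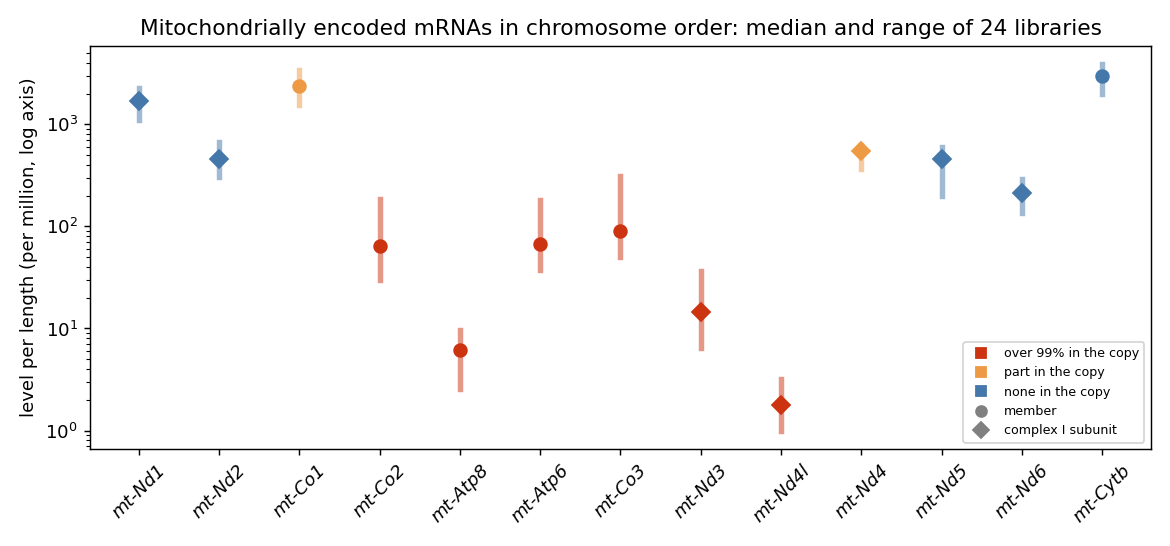
Per-length level (per 1000000, log axis) of the mitochondrially encoded mRNAs in their order along mitochondrial DNA, with points for the median of 24 libraries and bars for the lowest to highest library (mt-Nd4l, at 0 in its lowest library, is drawn from 1 upwards). Colour gives the share of the gene inside the chromosome 1 copy, and the genes over 99% inside it lie between 1.77 and 90.8, below all others, of which mt-Nd6 is lowest at 214.

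Among nuclear members, the ATP synthase beta subunit Atp5f1b, which carries the catalytic sites, had the highest median per-length level, 1844, followed by Cox4i1, a core-associated subunit of complex IV, with 885, Cox6a1 with 797 and the ATP synthase alpha subunit Atp5f1a with 778. The median over nuclear members was 234 for complex II, 95.9 for complex III, 250 (249.8) for complex IV and 230.2 for complex V. Complex III is counted here with its assembly factors, which are needed to build the complex and are not part of it. Uqcc1 had a per-length level of 46.2, Uqcc5 of 44.1, Uqcc4 of 35.2 and Uqcc6 of 14.3, while Uqcc2 (97.1) and Uqcc3 (66.3) lay among the subunits, of which Uqcr11 had 53.2, Uqcrq 94.6 and the core subunit Uqcrc1 631. Cox6b2 (2.21), a form known from testis, and Cox7a1 (1.55), a form known from muscle, were near the bottom. Cox7a1 had normalized values of 0 to 40.3 and was the 1 member that did not reach a value of 10 in 4 libraries, so 58 members (48 nuclear) entered the tests. Cox4i2, Cox6a2, Cox7b2, Cox8b and Cox8c were not analysed here. Of the 49 nuclear members, 13 had a stretch of at least 150 bases with at least 98% identity elsewhere in the genome. For Cox5b (55.6%) and Uqcrb (77.3%) this covered most of the longest transcript, so their values are uncertain. Per-length levels use the canonical transcript instead, for which such shares were not computed. Atp5mc2, for example, had 655 bases in copies and a canonical transcript of 731 bases, so other members can be uncertain too.

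The sorting markers followed the labels. Klrg1 had normalized values of 16559 to 41561 in kTreg libraries and at most 357 in the others, and Foxp3, the defining transcription factor of Treg cells, was present in all libraries (5079 to 37793). Old aTreg 2 had the lowest Foxp3, 5079, against 16925 to 19813 in the other old aTreg libraries. Young kTreg 4 had no read for 4913 listed genes, against 419 to 2756 in the other libraries. Markers of other cells varied, with summed values of 490 (489.7) to 15404 for 6 B cell markers and 1079 to 28733 for 6 macrophage and monocyte markers. The part of such cells in the results was not tested. Because each value is an average over sorted cells, fewer cells of a type and less RNA per cell cannot be told apart.

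The nuclear members moved together from library to library. For each library, the deviation of each member from its median of 24 libraries was taken on the log2 scale, and the median over nuclear members summarised. This deviation was highest in old rTreg 3 (0.74), old aTreg 2 (0.69) and young rTreg 3 (0.65) and lowest in old kTreg 2 (-0.38). Nuclear members have short transcripts, with a median of 1140 bases against 2738 for all genes tested. The same deviation was taken over 258 other well-measured genes with transcripts under 800 bases, without symbols starting Rps, Rpl, Mrp, Nduf or mt-. It had the same sign as that of the nuclear members in 24 of 24 libraries, with 0.51 in old rTreg 3, 0.56 in old aTreg 2 and 0.59 in young rTreg 3, and the gap between the measures was at most 0.23. The group means went the same way, with 0.32 ± 0.27 (SD, n = 4) for nuclear members and 0.30 ± 0.25 for other short transcripts in young rTreg cells, and -0.19 ± 0.13 and -0.20 ± 0.11 in old kTreg cells. A shift of nuclear members and a shift of short transcripts cannot be told apart in these libraries. The deviation of mt-Co1 and mt-Cytb had the same sign as that of the nuclear members in 12 of 24 libraries. It was -0.25 in old rTreg 3, 0.47 in old aTreg 2 and 0.14 in young rTreg 3.

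**Figure D2:**
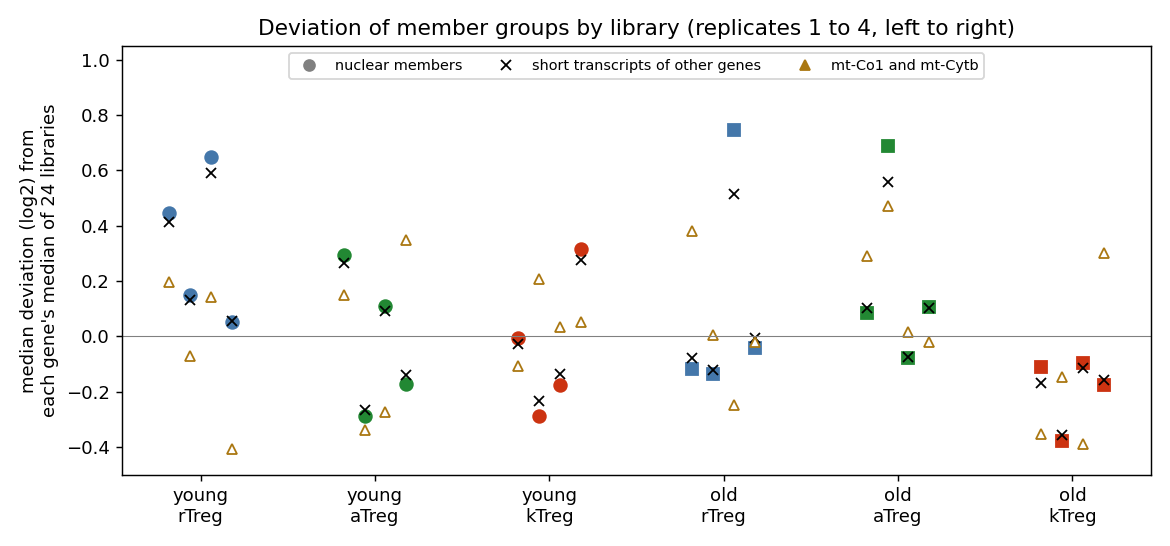
Median deviation (log2) from each gene's median of 24 libraries, for replicates 1 to 4 of each group, of the nuclear members (filled symbols), of 258 other genes with short transcripts (crosses) and of mt-Co1 and mt-Cytb (open triangles). Filled symbols and crosses lie within 0.23 of each other in every library, with old rTreg 3 highest at 0.74.

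The first comparison asked how kTreg cells differ from rTreg cells, first in young mice. A gene was called when its adjusted p (limma, Benjamini-Hochberg over all genes tested) was below 0.05 and its fold change above 1.5. Of 58 members, 4 (6.90%) were called lower in kTreg cells, against 7.56% of all genes called lower, so the share of members called was near the background. The groups did not overlap for 11 members (19.0%), all lower in kTreg cells, against 11.6% of all genes. The macrophage and monocyte markers summed to 8650 (8649.9) to 28600 (28599.9) in young kTreg, 1079 to 9214 in young rTreg and 1640 (1639.8) to 4218 in young aTreg cells. In young kTreg 1 to 4 the macrophage gene Lyz2, 1 of these markers, had values of 568, 6805, 145 and 0. The sums of young kTreg 3 and 4 were therefore made up mostly of other markers of the list. The part of the markers in the differences of young kTreg cells was not tested. The called members were a subunit of the ATP synthase ring, a factor that joins complexes and 2 assembly factors of complex III.

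Atp5mc1, which encodes the c subunit whose ring turns as protons pass, had normalized values of 2255, 1633, 2326 and 1370 in young rTreg 1 to 4 and of 1081, 1069, 834 and 990 (989.7) in young kTreg 1 to 4. Every kTreg value lay below every rTreg value, so kTreg cells were lower in 4 of 4 numbered pairs. The log2 fold change was -0.90 ± 0.23 (SE) with an adjusted p of 0.00776. The call was lost only after a trend with transcript length had been subtracted (-0.43). A near-identical copy covered 25.3% of its longest transcript (1204 of 4755 bases), while its canonical transcript has 612 bases.

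Cox7a2l encodes a factor that links complexes III and IV into supercomplexes, and C57BL/6 mice are known to carry a shortened form of its protein. Its normalized values were 4223, 3409, 4772 and 3571 in young rTreg cells and 2088, 1695, 1624 and 3532 in young kTreg cells. Young kTreg 4 lay inside the rTreg range, and the other 3 kTreg libraries lay below it. The log2 fold change was -0.90 ± 0.22, with an adjusted p of 0.00481 and lower values in 4 of 4 numbered pairs. This was the 1 member whose call was kept under all 22 alternatives that apply to it, with an adjusted p of up to 0.0493. The alternatives with no fold threshold and with unadjusted p are looser rules on the same fit. A called gene cannot fail those.

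Uqcc5, an assembly factor of complex III, had values of 364, 254, 480 and 277 in young rTreg cells and of 154, 142, 120.5 and 243 in young kTreg cells. No kTreg value reached the rTreg range, and the log2 fold change was -1.06 ± 0.32 (adjusted p = 0.0240). Uqcc6, another such factor, had values of 193, 164, 204 and 118 in young rTreg cells and of 123, 104, 102 and 33.0 in young kTreg cells, where young kTreg 1 lay above young rTreg 4. Its log2 fold change was -1.03 ± 0.33 (adjusted p = 0.0316), and -0.60 without young kTreg 4, where it was no longer called. The Uqcc5 call was lost without young rTreg 1 or 3 or without young kTreg 2 or 3, and the Uqcc6 call was lost also without young rTreg 1, 2 or 3 and with edgeR (0.0554). Both were lost with only the compared groups in the model (0.0644 and 0.211) and with the length trend subtracted (0.0867 and 0.187). Without young kTreg 4, 8 members (13.8%) were called lower, against 7.39% of all genes, namely Atp5mc1, Cox7a2l and Uqcc5 together with Atp5pd, Atp5po, Uqcc3, Uqcc4 and Uqcrh.

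**Figure D3:**
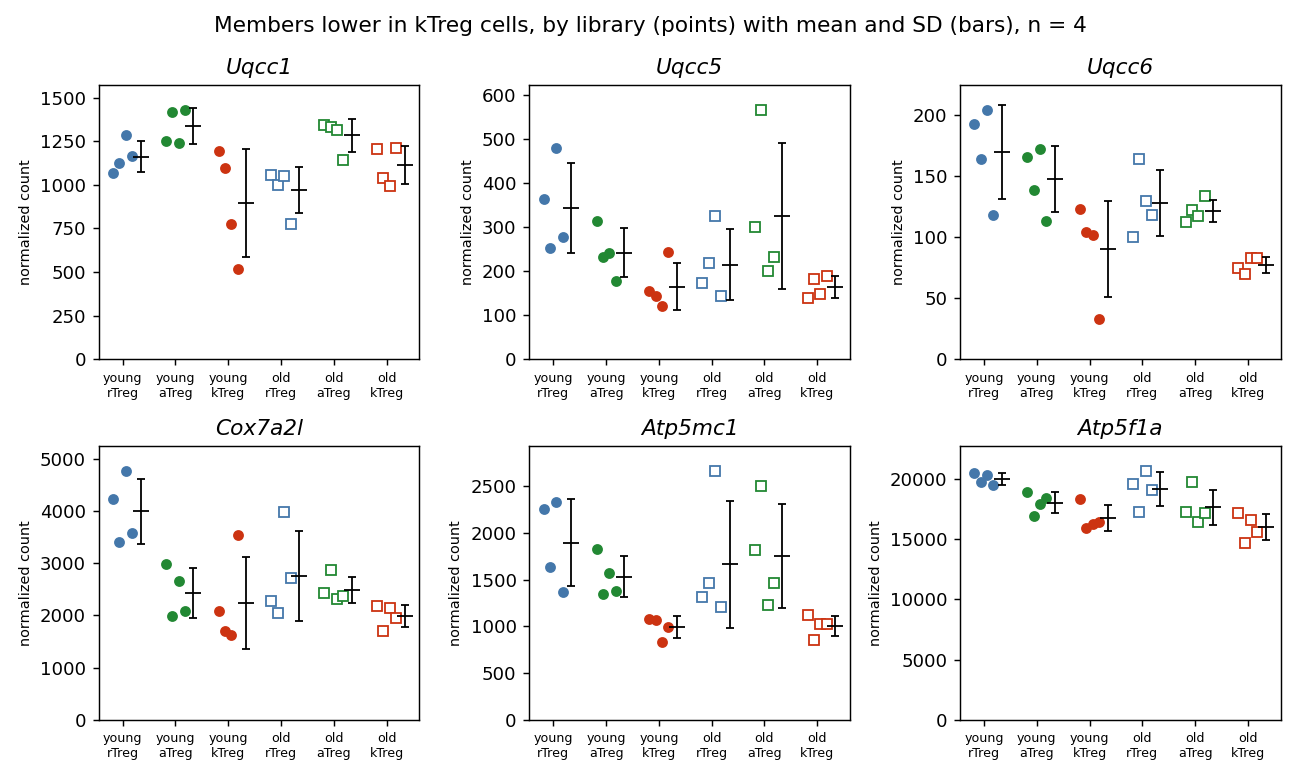
Normalized values of the 5 called members and of Atp5f1a in each library (points), by group, with the mean and SD of 4 libraries. In young mice, Atp5mc1 spans 1370 to 2326 in rTreg cells and 834 to 1081 in kTreg cells, and Uqcc1 spans 1243 to 1432 in aTreg cells and 515 to 1193 in kTreg cells.

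A smaller difference was found in the catalytic part of ATP synthase. Atp5f1b had values of 37218, 34938, 38724 and 36506 in young rTreg cells and of 29247, 24546, 26073 and 26404 in young kTreg cells. The groups did not overlap, and the log2 fold change was -0.47 ± 0.10 (adjusted p = 0.00178), below the fold threshold. In old mice, the values were 33919, 32931, 39874 and 33337 in rTreg cells and 30901, 23861, 26680 and 25550 (25550.4) in kTreg cells, again without overlap (-0.39 ± 0.10, adjusted p = 0.0150). Atp5f1a had values of 20531, 19762 (19762.5), 20303 and 19478 in young rTreg cells and of 18315, 15964, 16258 and 16400 (16399.9) in young kTreg cells, and in old mice of 19586, 17290.0, 20692 and 19116 against 17150.3, 14675, 16554 and 15623. No kTreg value reached the rTreg range at either age, with log2 fold changes of -0.26 ± 0.08 in young (adjusted p = 0.0180) and in old mice (adjusted p = 0.0295). Both genes were lower in kTreg cells in 4 of 4 young and 4 of 4 old numbered pairs. Among old mice these were the only members with an adjusted p below 0.05, against 3.84% of all genes lower by that rule. In young mice 8 members passed it, against 9.33%, of which Uqcrc2, a core subunit of complex III (-0.49), and Uqcc4 (-0.58), like Atp5f1b and Atp5f1a, lay under the fold threshold.

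With both thresholds, 0 members were called in kTreg against rTreg cells of old mice with limma, against 3.09% of all genes called lower. Of the 58 members, 8 (13.8%) had an unadjusted p below 0.05, against 24.8% of all genes. edgeR called 0, and DESeq2 called Atp5mc1 and Uqcrq, a small subunit of complex III, lower, against 4.29% of all genes. The groups did not overlap for 7 members (12.1%), all lower, against 7.65% of all genes. Atp5mc1 had values of 1317, 1464, 2666 and 1205 in old rTreg cells and of 1117, 852, 1027 and 1024 in old kTreg cells, without overlap (log2 fold change -0.66 ± 0.23, adjusted p = 0.0741). Old and young mice gave like values for this gene in kTreg cells (1005 ± 111 and 994 ± 114, SD, n = 4). The interaction of age with kTreg against rTreg cells was 0.25 ± 0.33 on the log2 scale (adjusted p = 0.723).

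The second comparison set kTreg against aTreg cells. In young mice, 1 of 58 members was called, Uqcc1, against 3.49% of all genes called lower. Uqcc1 encodes an assembly factor that acts on newly made cytochrome b, the product of mt-Cytb. Its values were 1254, 1419, 1243 and 1432 in young aTreg cells and 1193, 1096, 774 and 515 in young kTreg cells. The groups did not overlap for this gene or for 3 others, Uqcc4, Atp5mc1 and Atp5mc2 (6.90% of members, against 7.99% of all genes lower). For Uqcc1 the log2 fold change was -0.65 ± 0.18 (adjusted p = 0.0311). The call was lost without any 1 of the 4 young aTreg libraries (adjusted p 0.0518 to 0.0796), without young kTreg 3 (0.0748) or 4 (-0.41, 0.0845), with edgeR (0.0627) and with only the compared groups in the model (0.233), and DESeq2 gave a fold change under the threshold (-0.58). In the same fit its partner mt-Cytb differed by -0.06 ± 0.17, with values of 37962, 27030, 26583 and 38370 in young aTreg cells and of 26616, 33831 (33830.5), 28901 and 34311 in young kTreg cells.

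In old mice, 0 members were called in kTreg against aTreg cells with limma or edgeR, against 0.866% of all genes called lower. However, 19 members (32.8%) had an unadjusted p below 0.05, against 16.1% of all genes, and DESeq2 called 4 lower, Atp5mc1, Atp5pd, Cox6a1 and Uqcc5, against 1.85% of all genes. The groups did not overlap for 14 of 58 members (24.1%), all lower in kTreg cells, against 9.78% of all genes. Other short transcripts went the same way, with mean deviations of 0.17 in old aTreg and -0.20 in old kTreg cells. Nuclear members had 0.20 and -0.19. A shift of members cannot be told apart here from a shift of short transcripts. Cox6a1 had values of 5250 (5249.6), 8494, 4160 (4159.9) and 4727 in old aTreg cells and of 3619, 3014, 3781 and 3540.5 in old kTreg cells (-0.65 ± 0.23, adjusted p = 0.150). The highest aTreg value was that of old aTreg 2, the library with the lowest Foxp3. Without it, the median log2 fold change of nuclear members was -0.25 instead of -0.39.

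The third comparison set aTreg against rTreg cells. With limma 0 members were called in young or in old mice, against 0.637% and 3.78% of all genes called lower, and edgeR called 0 in either. At an unadjusted p below 0.05 there were 4 members (6.90%) in young and 2 (3.45%) in old mice, against 13.5% and 24.2% of all genes. DESeq2 called Cox7a2l lower in young aTreg cells, against 1.28% of all genes. Cox7a2l had values of 2983, 1978, 2659 and 2074 in young aTreg cells, all below the young rTreg values given above (-0.73 ± 0.22, adjusted p = 0.0613).

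Taken by complex, the median log2 fold change between kTreg and rTreg cells of young mice was -0.18 for complex II, -0.45 for complex III, -0.26 for complex IV and -0.38 for complex V. All 14 nuclear members of complex III and all 12 of complex IV were below 0, as were 17 of 18 of complex V and 3 of 4 of complex II. For all genes tested the median was -0.14, with 57.9% below 0. In old mice the medians were -0.16, -0.32, -0.33 and -0.34 for complexes II to V, against 0.10 for all genes. The median of complex II was nearest to 0 at both ages. The transcripts of Sdha, Sdhb, Sdhc and Sdhd have 3073, 4030, 3209 and 1258 bases, against a median of 1140 for nuclear members. A difference by complex therefore cannot be told apart from one by transcript length. The flavoprotein subunit of complex II, Sdha, had values of 11050 (11049.6), 11906, 11427 and 6214 in young kTreg cells and of 10594, 11597, 10454 and 11633 in young rTreg cells, so that its log2 fold change of -0.17 ± 0.14 became 0.051 without young kTreg 4. Uqcrc1, a core subunit of complex III, and Cox4i1 of complex IV overlapped between these groups too. Uqcrc1 ranged from 9619 to 10940 in young rTreg and from 8591 to 11126 in young kTreg cells (-0.11 ± 0.15, adjusted p = 0.639). Cox4i1 ranged from 6825 to 9738 in young rTreg and from 4822 to 10779 in young kTreg cells, where the highest value was that of young kTreg 4 (-0.26 ± 0.25, adjusted p = 0.503).

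Within complex III, assembly factors and subunits were also summarised separately, without a test of the difference between them. In young mice, the median of the 6 Uqcc genes was -0.51 in kTreg against rTreg cells and -0.53 against aTreg cells, and that of the 8 subunit genes was -0.27 and 0.02. The factor Uqcc4 had values of 1268, 970 (970.4), 1513 and 1041 in young rTreg, 1273, 973.5, 1120.5 and 1097 in young aTreg and 731, 740 (740.1), 753 and 953 in young kTreg cells. The kTreg values lay below those of both other subsets, with -0.58 ± 0.16 against rTreg cells (adjusted p = 0.0133) and -0.49 ± 0.16 against aTreg cells (adjusted p = 0.0602). In old mice its kTreg (928 ± 109, SD, n = 4) and rTreg values (900.3 ± 70.3) overlapped.

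**Figure D4:**
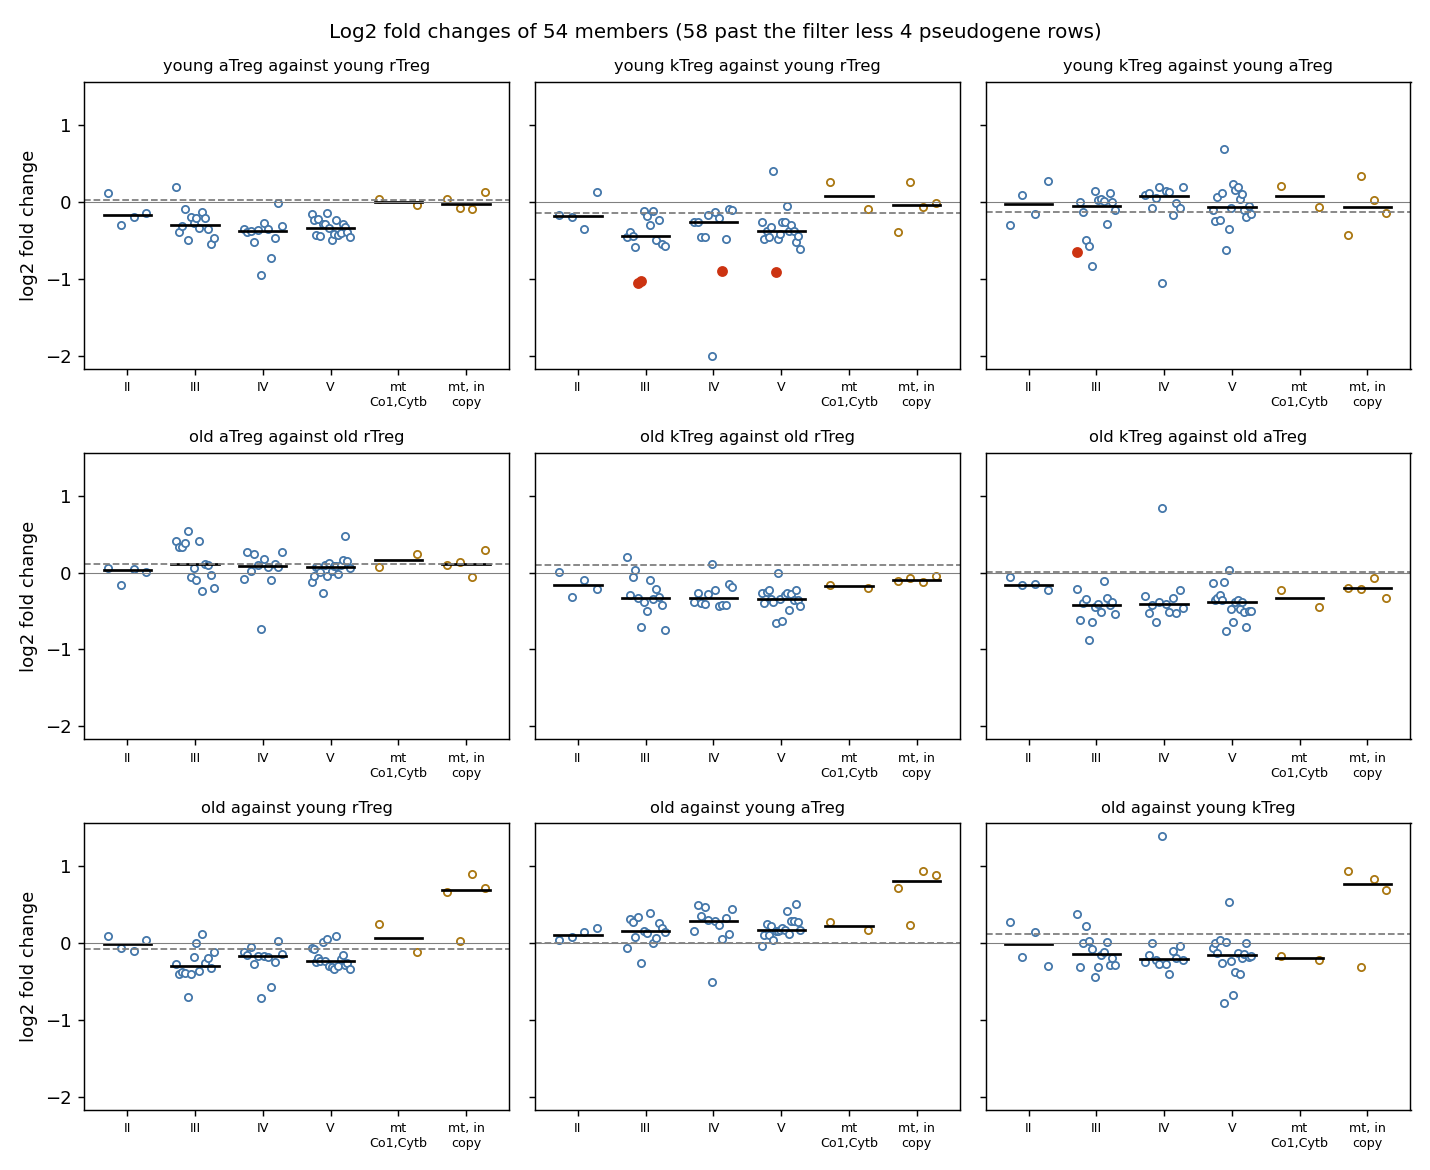
Log2 fold changes of 54 members (without pseudogene entries) in 9 comparisons, by complex for nuclear members and separately for mt-Co1 with mt-Cytb and for the 4 genes inside the chromosome 1 copy. Filled red points were called, black bars are medians and the dashed line is the median of all genes tested. In kTreg against rTreg cells the nuclear medians lie between -0.45 and -0.16 at both ages, and in old against young cells the genes inside the copy have medians of 0.69 to 0.80.

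Nuclear and mitochondrially encoded members were set side by side. In kTreg against rTreg cells of young mice the median was -0.37 for nuclear members (46 of 48 below 0) and 0.08 for mt-Co1 and mt-Cytb, and in old mice -0.32 (44 of 48) and -0.18. In young aTreg against rTreg cells these medians were -0.33 (46 of 48) and 0.0062. In old mice both sets had lower mean deviations in kTreg than in aTreg cells. Nuclear members had 0.20 ± 0.34 (SD, n = 4) in aTreg and -0.19 ± 0.13 in kTreg cells, but -0.01 and -0.04 in young mice. mt-Co1 and mt-Cytb had 0.19 ± 0.23 and -0.15 ± 0.32, but -0.03 and 0.05 in young mice. Leaving out 1 library, the young nuclear median in kTreg against aTreg cells ranged from -0.14 to 0.09, with both signs. Of the tested complex I genes of mitochondrial DNA, all 6 were below 0 in kTreg against rTreg cells. Their medians were -0.28 in young and -0.32 in old mice. All 6 were also below 0 in young aTreg against rTreg cells (median -0.16), but above 0 in old (0.22). These 6 pool genes outside the copy with mt-Nd3 (99.1% inside it) and mt-Nd4 (63.6%). With the 4 genes inside the copy included, the mitochondrially encoded median in kTreg against rTreg cells was -0.04 in young mice (-0.18 to 0.25 leaving out 1 library) and -0.12 in old mice (-0.24 to 0.040). mt-Co1 had values of 36033, 32244, 36038 (36037.5) and 21943 in young rTreg cells and of 34470 (34469.7), 42002, 38585 and 33411 in young kTreg cells (0.26 ± 0.20, adjusted p = 0.390), which overlapped. By numbered pair, the median of nuclear members in kTreg against rTreg cells was -0.47, -0.43, -0.77 and 0.19 in young pairs 1 to 4 and -0.03, -0.28, -0.87 and -0.13 in old pairs 1 to 4. The exception among young pairs was that of young kTreg 4, and the lowest old value was that of old rTreg 3. The median of the 6 mitochondrially encoded members was -0.82, 0.20, -0.24 and 0.47 in young and -0.025, -0.24, -0.28 and 0.19 in old pairs, with both signs at either age. Without old rTreg 3 the old nuclear median was -0.10. After subtraction of the transcript length trend, the nuclear medians in kTreg against rTreg cells were -0.22 in young and -0.13 in old mice.

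Differences between old and young mice were sought in each subset. With limma, edgeR or DESeq2, 0 members were called in rTreg, aTreg or kTreg cells, against 5.83%, 2.71% and 1.26% of all genes called in either direction with limma. At an unadjusted p below 0.05 there were 4 (6.90%), 6 (10.3%) and 5 members (8.62%), against 22.0%, 12.5% and 15.5% of all genes. The nuclear members had a median of -0.20 in rTreg cells, 0.17 in aTreg cells and -0.16 in kTreg cells. These medians moved with single libraries, and that of aTreg cells was 0.02 without old aTreg 2. Without old rTreg 3, Cox7a2l was called lower in old rTreg cells (-0.76, adjusted p = 0.0271, against 2.81% of all genes), where it had values of 2284, 2044 and 2712 beside 3978 in old rTreg 3. The macrophage and monocyte markers summed to 11425 to 28733 in old rTreg and 1079 to 9214 in young rTreg cells. Their part in these differences was not tested.

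The mitochondrially encoded members were read by their place in or outside the copy. mt-Co1 and mt-Cytb had medians of 0.06 in rTreg, 0.22 in aTreg and -0.19 in kTreg cells of old against young mice. The 4 genes inside the chromosome 1 copy had medians of 0.69, 0.80 and 0.76. mt-Co2, a core subunit of complex IV, had values of 247, 290 (289.7), 286 and 409 in young kTreg cells and of 709, 695, 416 and 413.5 in old kTreg cells, which did not overlap (0.83 ± 0.40, adjusted p = 0.319). mt-Atp6, a subunit of the proton channel of ATP synthase, had values of 231.5, 294.5, 253.5 and 373.5 in young and of 743, 733, 412 and 389.9 in old kTreg cells, again without overlap (0.94 ± 0.37, adjusted p = 0.240). mt-Co3 had a log2 fold change of 0.72 in rTreg, 0.89 in aTreg and 0.70 in kTreg cells. mt-Atp8, an accessory subunit of ATP synthase with few reads (13.5 ± 3.65 in young and 10.8 ± 3.55 in old kTreg cells, SD, n = 4), had 0.026, 0.24 and -0.31 in the same order, below the other 3 genes in each subset. None of these differences passed the test, and how far they reflect mitochondrial RNA or the copy was not tested. In kTreg cells the groups did not overlap for 3 members that were higher in old mice, mt-Co2, mt-Atp6 and Atp5mc2 (5.17% against 6.57% of all genes), and for 2 that were lower, Atp5if1 and Uqcr10 (3.45% against 3.88%).

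Whether age changed a difference between subsets was tested as an interaction. With limma, edgeR or DESeq2, 0 members were called, against 0.156% of all genes in either direction for kTreg against aTreg cells, 3.02% for kTreg against rTreg cells and 1.56% for aTreg against rTreg cells (limma). At an unadjusted p below 0.05 there were 3 (5.17%), 2 (3.45%) and 7 members (12.1%), against 9.4%, 17.2% and 15.8% of all genes. The 6 complex III assembly factors had a median interaction of 0.50 for kTreg against rTreg cells and all 6 were above 0. For Uqcc1 it was 0.66 ± 0.26 (adjusted p = 0.188) and for Uqcc4 0.62 ± 0.23 (adjusted p = 0.147). For all genes the median interaction was 0.21.

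Atp5if1 encodes an inhibitor that binds ATP synthase and blocks its reverse reaction. It had values of 1568, 1173, 1247 and 2557 in young kTreg cells and of 941, 702, 1044 and 989.8 in old kTreg cells, without overlap (-0.77 ± 0.29, adjusted p = 0.201). In young aTreg cells its values were 1367, 781, 1029.6 and 776, lower than in kTreg cells in 4 of 4 numbered pairs (0.69 ± 0.29 for kTreg against aTreg cells, adjusted p = 0.149). Among the settings with an adjusted p, it was called in these comparisons only after the transcript length trend had been subtracted, at 0.80 against aTreg cells and -0.66 for age, and then also against young rTreg cells (0.86).

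Because several subunits exist in forms encoded by separate genes, the share of each form in its family was computed from per-length levels. Within a library this share does not depend on library scaling. Cox7a2l made up 56.1% ± 1.34 (SD, n = 4) of the Cox7a family in young rTreg, 49.6% ± 2.18 in young aTreg and 44.0% ± 2.57 in young kTreg cells, and these groups did not overlap (54.3% to 57.5%, 47.3% to 51.7% and 40.7% to 46.3%). Most of the rest was Cox7a2, the form of complex IV in most tissues. In old mice, the share of Cox7a2l was 49.3% ± 2.41, 46.3% ± 3.38 and 49.4% (48.3% to 50.7%) in the same order, which overlapped. Atp5mc1 made up 27.4% ± 1.03 of the 3 Atp5mc genes in young rTreg cells and 21.4% ± 3.93 in young kTreg cells, and 28.1% ± 2.36 and 23.6% ± 2.00 in old mice. Atp5mc2, which encodes the same mature c subunit, made up 3.59% ± 0.352 in young and 5.83% ± 1.29 in old kTreg cells, without overlap (3.16% to 4.02% and 4.73% to 7.44%). These shares are descriptions and were not tested.

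**Figure D5:**
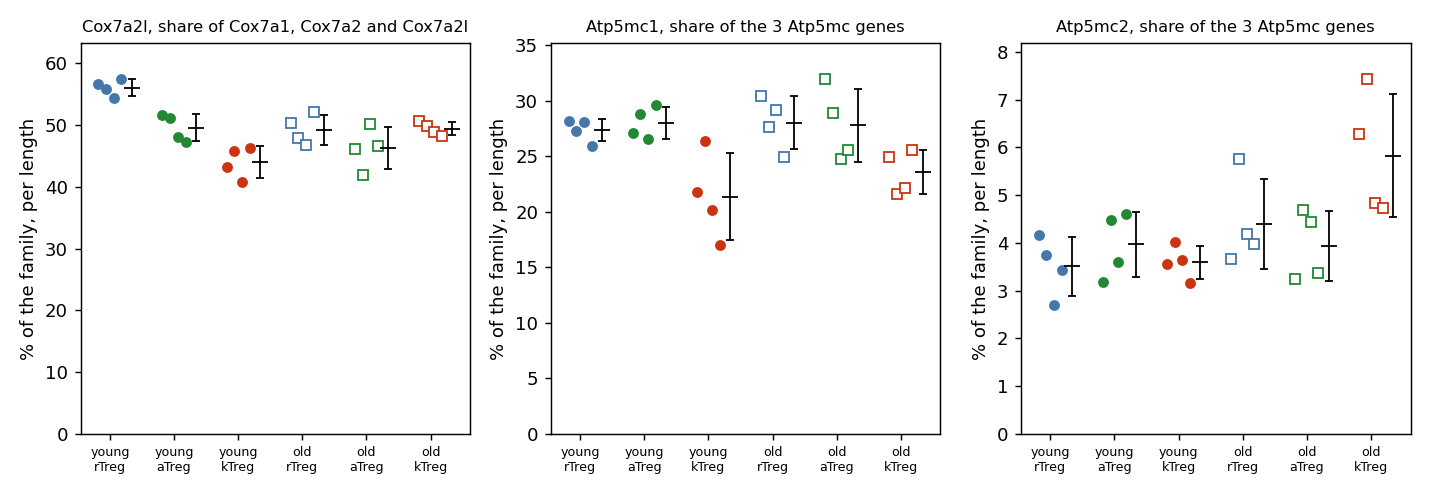
Share (percent of the family's per-length level) of Cox7a2l among Cox7a genes and of Atp5mc1 and Atp5mc2 among Atp5mc genes, with 1 point a library and the mean and SD of 4. The share of Cox7a2l falls from 56.1% in young rTreg to 44.0% in young kTreg cells and lies between 46.3% and 49.4% in the old groups.

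Other genes of the pathway were read from lists, with calls by limma unless another test is named. Of 40 assembly factors tested outside the symbols above, 3 (7.5%) were called lower in kTreg than in rTreg cells of young mice, against the 7.56% of all genes given above. They were Lyrm7, which helps to place the iron-sulfur protein into complex III (-2.58, adjusted p = 0.0449), the copper chaperone Sco2 (-1.99) and Coa8 (-0.78). Of these, edgeR called Coa8, and DESeq2 called Coa8 and Sco2. Cox10, which takes part in making the haem A of complex IV, was the 1 factor called lower in kTreg than in aTreg cells of old mice (-1.53, 2.5% of factors against 0.866% of all genes). The copper chaperone Sco1 was the 1 called higher in kTreg than in rTreg cells of old mice (1.70, against 5.77% of all genes), and Sco1 (2.21) and Cox10 (1.68) were the 2 called higher in aTreg than in rTreg cells there (5.0% against 4.82%). Between ages, Sco1 was called lower in old rTreg cells (-2.02, 1 factor, against 5.83% of all genes), and Cox10 (1.54) and Cmc2 (1.38) higher in old aTreg cells (2 factors, against 2.71%). Cox10 and Sco1 were called also for the interaction of age with aTreg against rTreg cells (1.78 and 2.30, against 1.56% of all genes), Sco1 not with edgeR (adjusted p = 0.0746). Of 19 genes that replicate, transcribe or translate mitochondrial DNA, and of 6 tested genes for electron carriers and subunits outside the symbols above, 0 were called in any comparison with limma or edgeR, while 0 to 7 and 0 to 4 had an unadjusted p below 0.05. The 7 were in old against young rTreg cells (22.0% of all genes). The 4 were in kTreg against aTreg cells of old mice (16.1% of all genes). Of 6 tested complex I genes of mitochondrial DNA, 0 were called with limma or edgeR and 0 to 5 had an unadjusted p below 0.05. The 5 were in kTreg against aTreg cells of old mice (16.1% of all genes), where all 6 were below 0 (median -0.50). In young kTreg against aTreg cells 3 of 6 were below 0 (median -0.06). In kTreg against aTreg cells of old mice, DESeq2 called cytochrome c (Cycs, -0.63) and mt-Nd2 (-0.63) lower. Among 9 regulators tested, limma called 1 (11.1%), Myc, lower in kTreg cells than in aTreg (-1.33) and rTreg cells (-1.68) of young mice. It was also called lower than in rTreg cells of old mice (-0.92), against 3.49%, 7.56% and 3.09% of all genes. DESeq2 alone called Ppargc1b lower in young kTreg than aTreg cells (-0.76, against 628 of 17248 genes lower). It called Ppargc1b higher in young aTreg than rTreg cells (0.84, against 641 higher). By age, DESeq2 called Myc lower in old rTreg (-0.67) and aTreg cells (-0.67), against 412 and 253 genes lower. Of 14 genes of the tricarboxylic acid cycle, 1 (7.14%) was called lower in each of 3 comparisons. This was Idh2 in kTreg against rTreg cells in young (-0.76, not called with edgeR) and old mice (-1.04), and Suclg1 in kTreg against aTreg cells of old mice (-0.69, against 0.866% of all genes). Ogdh was called higher in kTreg than in rTreg cells of young mice (0.59, against 8.24% of all genes), but not with edgeR or DESeq2.

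The promoters of 36 of 49 nuclear members (RefSeq, GRCm38.p6, 250 bases before to 50 after the start) were searched on both strands for 3 motifs. Shares are set against all promoters of that source, whether or not the gene was expressed here. Whether the motifs have a part in the shifts of nuclear members across libraries was not tested. NRF1 is a transcription factor known to bind many such genes. The core of its motif, GCATGCGC, lay in 7 of 36 (19.4%), against 2.81% of 27025 promoters. The ETS motif CCGGAAG lay in 11 (30.6% against 9.12%) and the YY1 motif AAGATGGC in 3 (8.33% against 2.88%). A promoter with the NRF1 motif alone (Uqcrc1) and one with NRF1 and ETS motifs (Cox6a1) are shown as examples, with the motifs in capitals.
Uqcrc1, chr9:108936398-108936697, plus strand: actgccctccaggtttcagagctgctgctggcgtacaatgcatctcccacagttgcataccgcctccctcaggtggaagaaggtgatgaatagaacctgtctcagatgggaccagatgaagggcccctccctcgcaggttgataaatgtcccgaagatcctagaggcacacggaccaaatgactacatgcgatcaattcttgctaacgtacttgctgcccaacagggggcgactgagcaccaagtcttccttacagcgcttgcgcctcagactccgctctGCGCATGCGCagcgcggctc
Cox6a1, chr5:115348909-115349208, minus strand: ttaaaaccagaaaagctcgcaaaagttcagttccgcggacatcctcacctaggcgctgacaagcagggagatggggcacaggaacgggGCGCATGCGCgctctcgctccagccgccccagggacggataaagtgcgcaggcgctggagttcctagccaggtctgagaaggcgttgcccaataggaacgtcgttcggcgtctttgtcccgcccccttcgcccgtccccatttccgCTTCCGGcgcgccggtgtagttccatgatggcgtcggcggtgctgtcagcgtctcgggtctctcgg
The NRF1 letters were found on both strands at overlapping places, which gives the longer run in capitals, and CTTCCGG is the ETS motif read on the other strand. The promoters of the called members Uqcc1, Atp5mc1 and Cox7a2l held none of these letters in this window.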

How the data were processed

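The authors amplified polyA RNA with SMART-Seq v4 and read both ends of the fragments (150 bases each). HISAT2 2.2.1 placed the reads on GRCm39 and HTSeq 1.99.2 assigned them to genes, with SAMtools 1.13 and DESeq2 1.44.0 also named in their notes. The annotation release, the strand setting and the treatment of reads with several places are not given in the sources used here. The table deposited by the authors holds a normalized signal, with reads scaled by a single size factor in each library, so that 1 read was worth 0.694 to 1.32. All values came out as whole reads within 0.001 reads. The depth over listed genes was 15045747 to 29521942 reads. PCR copies are not independent molecules, so errors come from the spread over libraries.

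The members and gene lists were chosen with earlier results of these data known. GENCODE M39 (GRCm39) gave symbols and positions for 17353 identifiers and not for 111. After removal of genes that did not reach 10 in 4 or more libraries, 16630 were fitted with limma 3.58.1 in R 4.3.3 (trended variance, log2(value + 1), 6 groups), so fold changes of low genes are understated. A call needed a p, adjusted by Benjamini-Hochberg, of less than 0.05 together with a change of more than 1.5-fold. Copies were searched with BLAST 2.17.0 (at least 150 bases at 98% identity). Promoters came from RefSeq (GRCm38.p6). The genes named are those called in a main comparison, a landmark subunit of each complex (Sdha, Uqcrc1, Cox4i1, Atp5f1a), mt-Co1 and mt-Cytb. Other members and list genes were named after their values were seen. The fits were tested on simulated data. edgeR 4.0.16 and DESeq2 1.42.0 on the recovered reads, other filters and pseudocounts, TMM factors, left-out libraries and the replicate block were tried as alternatives.

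The 3 subsets were sorted from 8 mice, but the labels do not state that a shared number marks a mouse, so the block was left as an alternative. The median correlation of deviations from the group means between libraries of the same number was 0.153 for rTreg and aTreg, 0.091 for rTreg and kTreg and 0.115 for aTreg and kTreg cells (lowest -0.064, 0.039 and 0.064), against -0.033, -0.034 and -0.051 between other libraries, and the consensus correlation was 0.062.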

Additional observations from a re-analysis of the deposited data

Results flagged for a closer look

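Libraries far from the other 3 of their group were sought by Dixon's ratio in 108 groups of 4 values, and 5 were found, where chance gives about 1 in 20 groups. Old aTreg 4 had a Uqcc1 value of 1145, below the other old aTreg libraries (1315 to 1343). Young rTreg 1 had an mt-Atp6 value of 660 (659.6), above the other young rTreg libraries (287 to 336). Young kTreg 4, the library with most genes without a read, had an Sdha value of 6214, below the other young kTreg libraries (11050 (11049.6) to 11906). Old rTreg 3 had a Uqcrc1 value of 16971, above the other old rTreg libraries (9445 to 10007), and its median deviation of nuclear members was 0.74, against -0.14 to -0.04 in the others. In this library the macrophage gene Lyz2 had a normalized value of 25153 and other short transcripts deviated by 0.51. The part of either in these values was not tested.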

How the results depend on the processing

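The subtraction of a transcript length trend and the joint removal of 3 libraries (old rTreg 3, old aTreg 2 and young kTreg 4) were chosen after the data were seen. Counts of members below are descriptions, because the number of all genes called changed with the setting too. Beside them, counts over all genes are given as higher and lower of 16630 tested, unless another total is named. For left-out libraries these counts are not given, beyond the shares above. The replicate block left the number of members called within 1.5 times in each comparison (5 members lower in young kTreg against rTreg cells, and an adjusted p of 0.046 for Uqcc1). In young kTreg against aTreg cells, where limma called 1 member, there were 4 by unadjusted p, 0 with only the compared groups, 0 with edgeR, 0 without old aTreg 2 and young kTreg 4, 2 with the length trend, 2 without the 3 libraries, and 0 to 1 leaving out 1 library. DESeq2 also called 1, Cox7a1, higher in kTreg cells, against 842 of 17248 genes. Over all genes, unadjusted p gave 1048 and 1634 and the length trend 664 and 615 of 16540, against 575 and 581 in the main fit. In young kTreg against rTreg cells (4 called), there were 8 with no fold threshold, 2 with only the compared groups, 8 without the 2 libraries, 12 without the 3, and 2 to 8 leaving out 1. No fold threshold gave 1577 and 1552 of all genes and only the compared groups 1044 and 717, against 1371 and 1258. In old kTreg against aTreg cells (0 called), there were 4 by unadjusted p, 2 with only the compared groups, 4 with DESeq2, and 0 to 1 leaving out 1. Unadjusted p gave 823 and 625 of all genes and only the compared groups 821 and 440, against 222 and 144. In old kTreg against rTreg cells (0 called), there were 2 with no fold threshold, 3 by unadjusted p, 2 with DESeq2, 3 without the 2 libraries, and 0 to 1 leaving out 1. No fold threshold gave 1062 and 638 of all genes and unadjusted p 2089 and 937, against 960 and 514. In young aTreg against rTreg cells (0 called), each of unadjusted p, only the compared groups, DESeq2, removal of the 2 and removal of the 3 libraries gave 1, and leaving out 1 gave 0 to 1. Unadjusted p gave 1042 and 482 of all genes and only the compared groups 750 and 283, against 451 and 106. In old aTreg against rTreg cells (0 called), leaving out 1 library gave 0 to 1, the 1 being without old rTreg 3. In old against young mice (0 called), unadjusted p gave 2 in rTreg, 2 in aTreg and 3 in kTreg cells. Over all genes it gave 1319 and 1187, 844 and 511, and 1486 and 404 in the same order. Removal of the 3 libraries gave 8 in rTreg cells, all lower, leaving out 1 gave 0 to 1 there, and the length trend gave 1 in kTreg cells. In kTreg cells the length trend gave 205 and 58 of 16540 genes. For the interactions (0 called), unadjusted p gave 2 for kTreg against aTreg, 2 for kTreg against rTreg and 4 for aTreg against rTreg cells. Over all genes it gave 718 and 535, 1491 and 1006, and 1039 and 1094 in the same order. For kTreg against rTreg cells, removal of the 2 libraries gave 1, the length trend 1 (202 and 434 of 16540 genes) and removal of the 3 gave 5. For aTreg against rTreg cells removal of the 3 gave 1. The median log2 fold change of mitochondrially encoded members became 0.16 with the length trend in old kTreg against rTreg cells, -0.21 without the 3 libraries in old aTreg against rTreg cells and 0.70 with a filter at 50 in old against young kTreg cells, and that of nuclear members became -0.12 with the length trend in young aTreg against rTreg cells. In young kTreg against rTreg cells, Sdha became 0.051 without young kTreg 4 and without the 2 or the 3 libraries (-0.26 to 0.051 leaving out 1), and the length trend turned mt-Cytb to 0.17, Uqcrc1 to 0.047 and Cox4i1 to 0.13. The median of nuclear members ranged, leaving out 1 library, from -0.08 to 0.31 in old aTreg against rTreg cells, where the main value was 0.07. Unless shown by the alternative's own construction, the cause was not tested. Depth was not limiting for the main subunits, but mt-Atp8, Cox6b2 and Cox7a1 rested on few reads.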
